A study of Mus musculus with 3 samples.

Results

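The genes described here are 10 genes of integrin adhesion: the α subunit genes Itga4, Itga5, Itga6, Itgav and Itga2b, the β subunit genes Itgb1, Itgb3 and Itgb7, and the ligand genes Fn1 and Vcam1. They were taken by symbol from the 15058 genes that both deposited tables list between them, and all 10 were found. The set was chosen by name with earlier results of these libraries known, among them the counts of Itga4 in the Drosha-null cells, so the values of its members are given as a description. RNA was sequenced from CD71+ erythroblasts, immature red cells that still have a nucleus, sorted at E10.5 from the circulating blood of mice. CD71 is the transferrin receptor, and Ter119 is a red-cell antigen that increases as erythroblasts mature.

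There was 1 library in each of 3 groups. The Drosha-null library came from Ter119-high cells of conditional knockout (cKO) embryos of genotype Drosha fl/fl;cdh5-cre+, and its label gives Drosha abundance as null. The Ter119-low library came from Ter119-low cells of the same genotype, with Drosha labelled as abundant as in wild type. The control library came from Ter119-high cells of Drosha fl/fl or Drosha fl/+ embryos, for which no Cre is named, with Drosha labelled as wild type. All groups thus carry at least 1 floxed Drosha allele. Drosha is the nuclear nuclease that starts microRNA processing. The Cre is driven by Cdh5, a gene of endothelial cells, from which blood cells can descend, so any other descendants of that lineage would carry the deletion too. The series describes erythroblasts of 5 embryos pooled for RNA. With 1 library per group there is no spread between replicates, no test across conditions was made, and every interval covers counting error only. No molecular identifiers are named, so reads are not independent molecules.

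The libraries held between 9325812 and 9497434 counts. Drosha RNA stood at 10.9 CPM (counts relative to the scaled library size) in the Drosha-null, 27.4 in the Ter119-low and 38.6 in the control library. The Ter119-low library thus held less of it than the control, which goes against the label of the Ter119-low library. These counts cover the whole gene, including any part outside the deletion. All 12 erythroblast markers on the list used here were counted in every library, and globin RNA took 17.1%, 23.1% and 25% of the counts in the Drosha-null, Ter119-low and control libraries. In sorted pools a smaller share of cells that express a gene and less of its RNA per cell cannot be told apart.

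Integrins are cell-surface receptors made of 1 α and 1 β subunit, which hold cells to the extracellular matrix or to other cells. The α4 subunit pairs with β1 to bind fibronectin and the vascular adhesion molecule Vcam1, or with β7 to bind an adhesion molecule of gut vessels. Integrins α5β1 and those with αv also bind fibronectin, α6β1 binds laminin, and αIIbβ3 is the fibrinogen receptor of platelets, whose α chain gene, Itga2b, is also active in early blood progenitors. In fetal liver and bone marrow, definitive erythroblasts attach through α4β1 to Vcam1 on the central macrophage of the erythroblastic island and to fibronectin, and lose these integrins as they mature.

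Since Drosha starts microRNA processing, the members' 3′ UTRs were searched for the 7 bases that match the seeds of 4 microRNA families, chosen because earlier results of these data had dealt with their sites. The mature sequences, from RefSeq on GRCm38.p6, are shown 5′ to 3′ with the seed (bases 2 to 8) in capitals.
miR-451a: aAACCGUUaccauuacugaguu
miR-144-3p: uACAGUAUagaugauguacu
miR-92a-3p: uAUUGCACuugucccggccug
miR-17-5p: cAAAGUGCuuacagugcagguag

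No member held the miR-451 match AACGGTT in its longest 3′ UTR annotated in GENCODE M21. The 3′ UTR of Itga4 was the longest of the set, at 6508 bases, and its only match was 1 for miR-17. Among 549 genes with 3′ UTRs of 80% to 125% of that length, 43.2% had at least 1 miR-17 match and 6.74% a miR-451 match. Matches to miR-92 were found in 4 of the 10 members, once in Itga5, Itga6 and Itgb3 and at 2 places in Itgav, beside 6.56% of 21034 genes of any length. Among genes of like length the share with a match was 4.56% for Itga5, 4.32% for Itga6, 15.1% for Itgb3 and 15.8% for Itgav. Itgb1 had 1 match to miR-144, which 321 of 3051 genes of like length, itself counted, held. The 3′ UTRs of Itga2b, Itgb7, Fn1 and Vcam1 held none of the 4 matches. A match is a stretch of letters and not a measured site. The matches are shown 5′ to 3′ in 30 bases of transcript, with the matching bases in capitals. They are given because members of this set differ in which of these matches they hold.
Itga4, miR-17: attataaatatcGCACTTTagctgatacac
Itga5, miR-92: actctgttgcaaGTGCAATaaaccccaccc
Itga6, miR-92: tctgtcttaaatGTGCAATagaaggtgatg
Itgav, miR-92, first: agctctatttttGTGCAATtacatcatgtt
Itgav, miR-92, second: cattgttcttaaGTGCAATataacaatgta
Itgb1, miR-144: cctttttcacaaATACTGTaagctgtcctg
Itgb3, miR-92: gggaggccacaaGTGCAATtttattttatt

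In the Drosha-null library the α4 and αv subunit genes, fibronectin and, by a smaller ratio, the β1 subunit gene stood above the control, while the platelet pair Itga2b and Itgb3 lay closer to it. No member of the Ter119-low library reached a 2-fold difference that counting error did not cover. A gene was called higher or lower when its ratio, of counts scaled by TMM (trimmed mean of M-values) with 0.5 counts added, was at least 2 either way and its exact 95% Clopper-Pearson interval excluded 1. A gene had to reach 1 CPM in at least 1 of the pair of libraries to be called.

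Against the control, 6 of the 10 members were called higher in the Drosha-null library and 0 lower. Of all 10769 genes that could be called there, 12.4% were called higher and 7.81% lower. The 6 were Itga4, Itga5, Itgav, Itgb1, Itgb7 and Fn1. Vcam1 was too low to be called, and Itga5 and Itgb7 passed the CPM limit only through the Drosha-null library, where they were higher, so they could be called in that direction alone. In the Ter119-low library against the same control, 0 members were called higher and 0 lower, with 8 that could be called, against 2.9% and 2.76% of all genes. With the Drosha-null library set against the Ter119-low one, 4 members were called higher (Itga4, Itgav, Itgb7 and Fn1) and 0 lower, against 10.8% and 5.94% of all genes. Itgb7 passed the CPM limit here, too, only through the Drosha-null library. These comparisons share libraries and are not independent of each other.

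**Figure D1:**
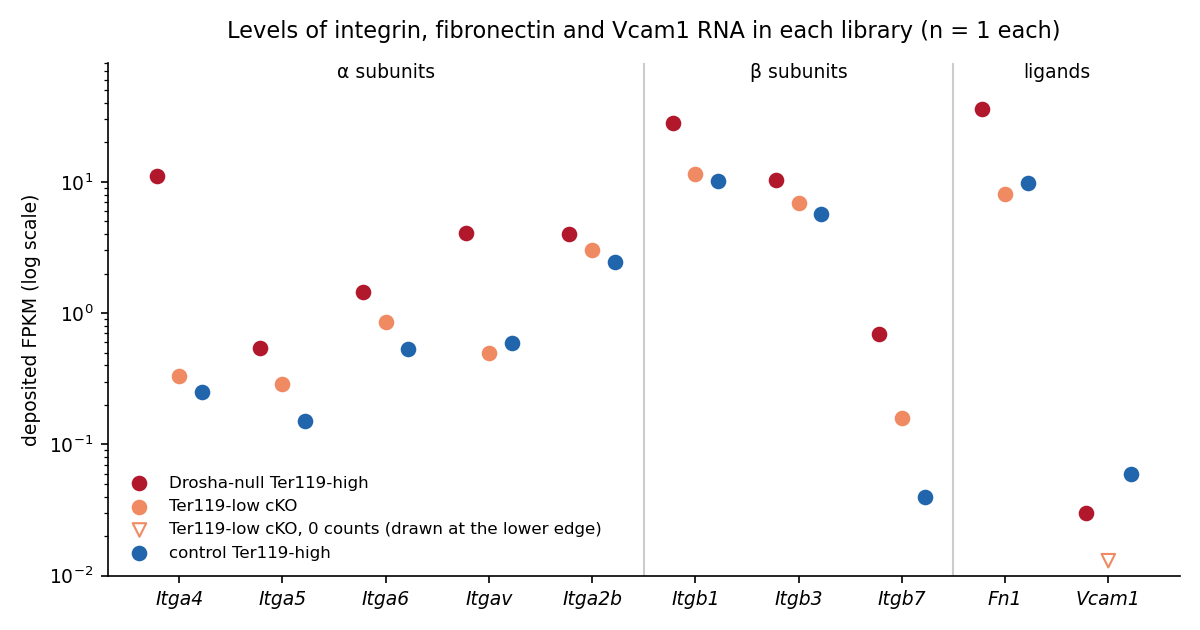
Deposited FPKM (log axis) of each member in the Drosha-null, Ter119-low and control libraries, 1 point per library. Itga4 stands at 11.13 FPKM in the Drosha-null library, against 0.33 in the Ter119-low and 0.25 in the control library, while Itga2b stands at 4.01, 3.02 and 2.46 FPKM in the same order.

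Itga4, the α4 subunit gene, spans bases 79255426 to 79333123 of the plus strand of chromosome 2 (GRCm38). It was counted 1015 times in the Drosha-null library, against 30 in the Ter119-low and 23 in the control library. Scaled, these were 91.1, 3.37 and 2.74 CPM. The Drosha-null library stood apart, and the other two lay within counting error of each other. The log2 ratio of Drosha-null to control was 5.03 (4.46 to 5.72), a fold of 32.6, and that of Drosha-null to Ter119-low was 4.73 (4.23 to 5.33). The log2 ratio of Ter119-low to control was 0.29, with an interval of −0.53 to 1.15. Among the 6661 named genes at 10 or more CPM in their highest library, 3, counting Itga4 itself, had a Drosha-null to control ratio at or above that of Itga4. Itga4 passed that limit only through the Drosha-null library, where it was higher, so its place there is not independent of the limit. Among all 10769 genes that could be called, with the limit of 1 CPM, Itga4 ranked 26th from the top. Per length, Itga4 moved to the 75.7th percentile of all genes by FPKM in the Drosha-null library, against the 31.6th in the Ter119-low and the 29.8th in the control library.

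The Itga4 promoter is shown because this member differed most between libraries. It is the RefSeq window from 250 bases before to 50 after the gene's start, chr2:79255176-79255475, plus strand, GRCm38.p6. It was searched on both strands for the letters AGATAA of the GATA factors, TGTGGT of the RUNX factors and CCGGAA of the ETS factors. Capitals mark the only match, 1 copy of ACCACA, the RUNX letters on the other strand.
Itga4: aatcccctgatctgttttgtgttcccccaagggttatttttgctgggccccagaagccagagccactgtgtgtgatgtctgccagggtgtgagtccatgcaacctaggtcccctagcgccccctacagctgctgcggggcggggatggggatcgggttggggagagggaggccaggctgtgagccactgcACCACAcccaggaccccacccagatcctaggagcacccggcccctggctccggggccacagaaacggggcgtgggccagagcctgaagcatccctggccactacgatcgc

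Of 32851 windows of 300 bases in the promoter table, 16.8% hold the RUNX letters, 11.2% the GATA letters and 14.9% the ETS letters. Windows were at hand for 6 members, of which Itga4 was the only one with the RUNX letters and Itgb1 the only one with the ETS letters, and 0 held the GATA letters. Runx1, which encodes a RUNX factor of blood cell formation and was among the blood progenitor markers, had 836 counts in the Drosha-null library, against 120 in the Ter119-low and 80 in the control library. Of GATA factor genes, Gata1 had 729, 628 and 632 counts and Gata2 had 13, 3 and 11 in the same order. Levels of ETS factor genes were not compared. Whether any factor binds this window was not measured, and whether Runx1 has a part in the Itga4 counts was not tested.

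The genes whose pattern lay nearest that of Itga4 in the plane of the 2 log2 ratios to the control were Tspan8, Ddah1, Casp8, Psd3 and Capg, out of the 6661. The nearest, the tetraspanin gene Tspan8, had 122 counts in the Drosha-null library, against 5 in the Ter119-low and 4 in the control library, and lay 0.67 log2 units away. The fifth, Capg, which encodes an actin-capping protein, lay 1.84 away, with 207, 29 and 16 counts in the same order. This likeness rests on 3 libraries, and both ratios share the control. Tspan8, Ddah1, Casp8 and Capg, like Itga4, passed the limit of 10 CPM only through the Drosha-null library. Their being high there is thus partly set by that limit.

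Itgav, the αv subunit gene, lies on the plus strand of chromosome 2, bases 83724397 to 83806916. It had 265 counts in the Drosha-null, 33 in the Ter119-low and 39 in the control library, which is 23.8, 3.70 and 4.64 CPM. As with Itga4, the Drosha-null library alone was high. The log2 ratios were 2.34 (1.87 to 2.88) for Drosha-null over control, −0.32 (−1.04 to 0.38) for Ter119-low over control and 2.66 (2.16 to 3.25) for Drosha-null over Ter119-low. Itga6 lies on the same chromosome, and stood at 0.99 in the first of these comparisons.

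Itga6, which encodes the laminin-binding α6 subunit, had 56 counts in the Drosha-null, 33 in the Ter119-low and 21 in the control library. Its log2 ratio of 0.99 to the control (0.26 to 1.81) in the Drosha-null library lay just under the size limit. Its ratio was 0.56 in the Ter119-low library (−0.27 to 1.43). The fibronectin receptor subunit gene Itga5 had 22, 12 and 6 counts in the same order, and its log2 ratio of Drosha-null to control was 1.38 with a wide interval (0.12 to 3.06). At these counts an order of the 3 libraries for Itga5 and Itga6 could not be read, and Itga5 passed the CPM limit against the control only through the library where it was higher.

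Itga2b, the αIIb subunit gene of platelets and early progenitors, had 126 counts in the Drosha-null, 96 in the Ter119-low and 79 in the control library, or 11.3, 10.8 and 9.40 CPM. Its intervals included 0 in all 3 comparisons, the log2 ratio of Drosha-null to control being 0.26 (−0.15 to 0.69). In the control it was the most abundant α subunit gene of the set per length.

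Itgb1, on the plus strand of chromosome 8, bases 128685654 to 128733200, encodes β1, a common partner of α chains. It had 1086 counts in the Drosha-null, 444 in the Ter119-low and 399 in the control library, or 97.4, 49.8 and 47.5 CPM. Its log2 ratio of Drosha-null to control was 1.04 (0.87 to 1.21), just past the size limit. The Ter119-low to control ratio was 0.07 (−0.13 to 0.27). The Drosha-null to Ter119-low ratio of 0.97 (0.81 to 1.13) fell just short of the limit.

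Itgb3, the β3 partner of αIIb and αv, had 557 counts in the Drosha-null, 372 in the Ter119-low and 312 in the control library. Its log2 ratios were 0.43 (0.23 to 0.63) for Drosha-null over control and 0.17 (−0.05 to 0.39) for Ter119-low over control, both under the size limit. Itgb7, the other β partner of α4, had 17, 4 and 1 counts in the Drosha-null, Ter119-low and control libraries. The Drosha-null to control ratio of its counts was 12.8, with an interval of 2.01 to 536 and a direction that the CPM limit fixes. The 1 count of Itgb7 in the control lies under the floor of 3 counts given for Vcam1 below, so the size of this ratio is not resolved. The FPKM of Itgb7, 0.69 in the Drosha-null library, was 1.76% of the summed FPKM of the 3 β subunit genes.

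**Figure D2:**
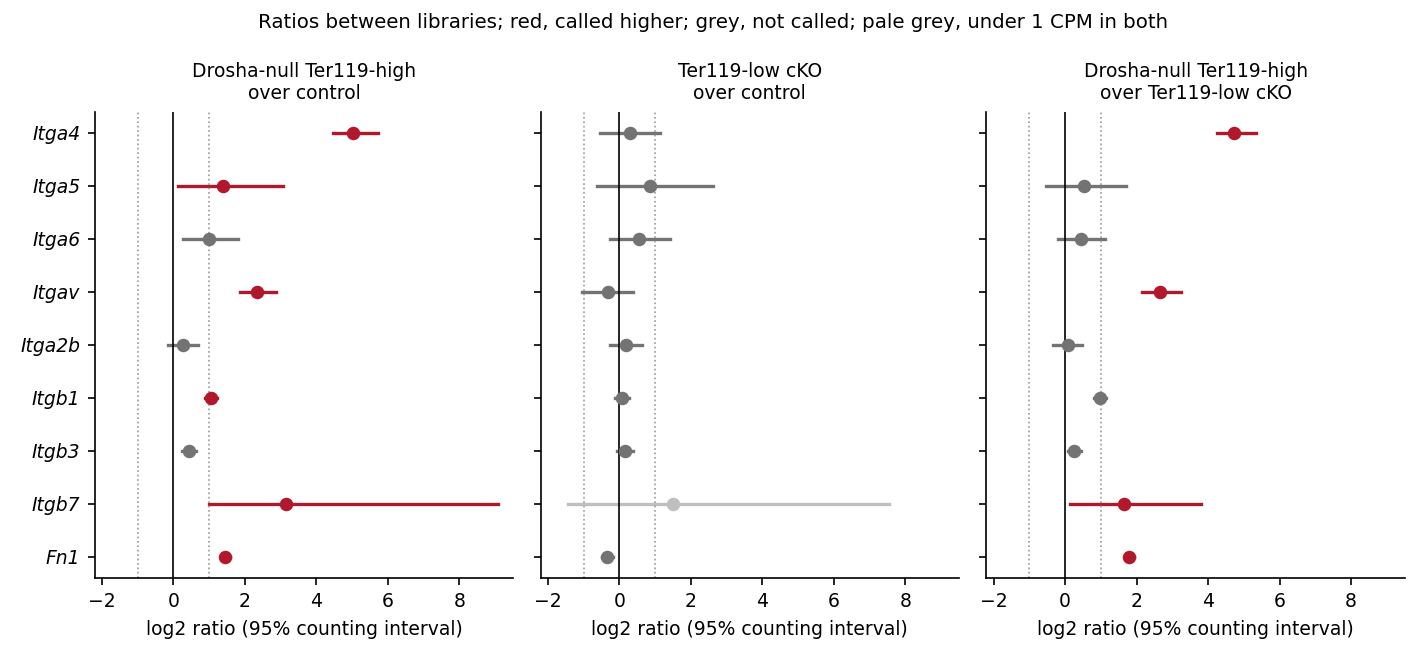
Log2 ratios of 9 members with exact 95% counting intervals in the 3 comparisons; dotted lines mark a 2-fold difference, and Vcam1 is left out for its counts of 2 or fewer. Itga4 stands farthest right wherever the Drosha-null library is on top, at 5.03 over the control and 4.73 over the Ter119-low library, and no interval lies beyond a 2-fold difference in the Ter119-low library over the control.

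Of the ligand genes, Fn1 encodes fibronectin and lies on the minus strand of chromosome 1, bases 71585520 to 71653200. It had 2683 counts in the Drosha-null, 621 in the Ter119-low and 741 in the control library. These were 241, 69.7 and 88.2 CPM. The log2 ratio was 1.45 (1.33 to 1.57) for Drosha-null over control and 1.79 (1.66 to 1.92) for Drosha-null over Ter119-low. Fn1 in the Ter119-low library lay below the control, at −0.34 (−0.50 to −0.18), beyond counting error but under the size limit. Vcam1, which encodes the ligand of α4β1 on macrophages and endothelium, had 1 count in the Drosha-null, 0 in the Ter119-low and 2 in the control library. All 3 lie under the floor of 3 counts, which is 0.269, 0.337 and 0.357 CPM in the same order, so Vcam1 was not detectable at this depth and no ratio is given.

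Levels of different genes can be set side by side only per length. In the Drosha-null library the order by FPKM was Fn1 (35.94), Itgb1 (28.19), Itga4 (11.13), Itgb3 (10.41), Itgav (4.06), Itga2b (4.01), Itga6 (1.45), Itgb7 (0.69) and Itga5 (0.54). The exact Poisson counting intervals of Itga4 and Itgb3, of Itgav and Itga2b, and of neighbours among the last 3 overlapped, so the order within those pairs is not resolved. In the Ter119-low library the order was led by Itgb1 (11.4 FPKM), Fn1 (8.14), Itgb3 (6.88) and Itga2b (3.02), with Fn1 and Itgb3 overlapping and every other member under 1 FPKM. In the control it was led by Itgb1 (10.16), Fn1 (9.74), Itgb3 (5.72) and Itga2b (2.46), with Itgb1 and Fn1 overlapping and Itga4 at 0.25.

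The make-up of the RNA of the 5 α subunit genes of the set differed between libraries. Itga4 gave 52.5% of the summed FPKM of the 5 α subunit genes in the Drosha-null library, against 6.61% in the Ter119-low and 6.28% in the control library. Itga2b gave 18.9% in the Drosha-null library, against 60.5% in the Ter119-low and 61.8% in the control library, while its own FPKM was 4.01, 3.02 and 2.46. The share of Itgav was 19.2%, 10.02% and 14.8% in the same order. The α sums here and below leave out Itga8, an α subunit gene outside the set. Its FPKM was 7.1 in the Drosha-null, 1.33 in the Ter119-low and 0.62 in the control library. In the Drosha-null library Itga8 thus stood above Itgav and Itga2b.

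Among the β subunit genes Itgb1 gave 71.7% of the summed FPKM in the Drosha-null, 61.8% in the Ter119-low and 63.8% in the control library, and Itgb3 gave most of the rest. The summed α FPKM was 21.2, 4.99 and 3.98 and the summed β FPKM 39.3, 18.4 and 15.9 in the 3 libraries, an α to β ratio of 0.539 in the Drosha-null, 0.271 in the Ter119-low and 0.25 in the control library. Itga4 reached 0.395 of the FPKM of its partner Itgb1 in the Drosha-null library, against 0.0289 in the Ter119-low and 0.0246 in the control library. For the platelet pair, the ratio of Itga2b to Itgb3 was 0.385, 0.439 and 0.43. Whether the proteins follow these RNA shares was not measured.

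**Figure D3:**
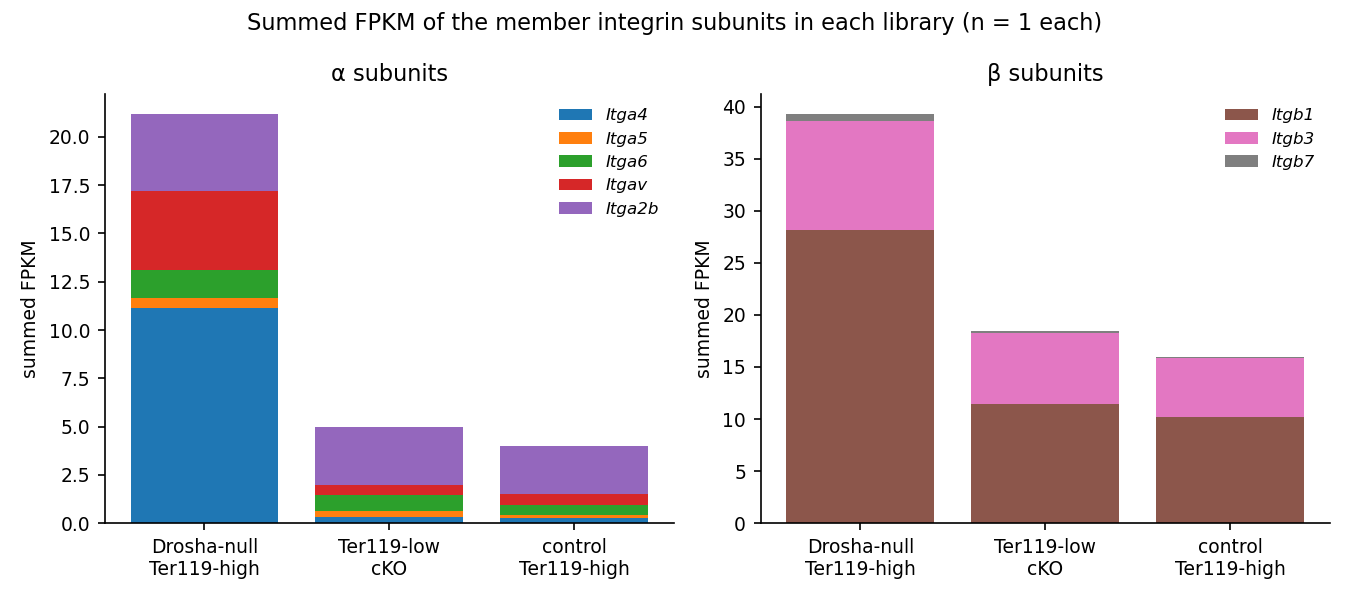
Summed FPKM of the 5 α (left) and 3 β (right) subunit genes, stacked by gene, in the Drosha-null, Ter119-low and control libraries. The α total is 21.2 FPKM in the Drosha-null library, of which Itga4 is 11.13, against 4.99 in the Ter119-low and 3.98 in the control library.

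Gene length moved with these ratios. Over all genes, the median log2 ratio of Drosha-null to control was −0.59 in the shortest decile by length and 0.29 in the longest, and 17.2% of the longest decile were called higher against 4.92% of the shortest. Itga4 (9833 bases), Fn1 and Itgav lie in the longest decile. Less the median of their decile, the ratios were 4.73 for Itga4, 2.05 for Itgav, 1.15 for Fn1, 1.22 for Itga5 and 0.87 for Itgb1. With the same correction applied to the intervals, 4 members were called higher, Itgb1 and Itga5 no longer being among them. In the Ter119-low library against the control, the medians of the shortest and the longest decile were −0.16 and 0.03.

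**Figure D4:**
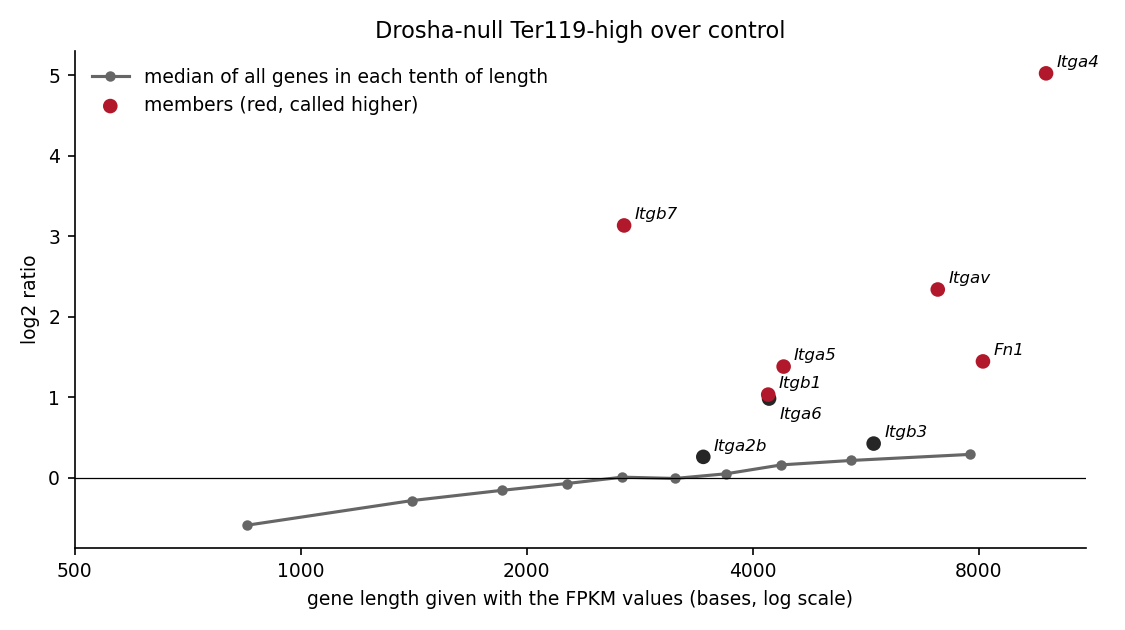
Log2 ratio of Drosha-null to control against gene length (log axis) for 9 members, with the median of all genes in each decile of length as a line. The line runs between −0.59 and 0.29, and Itga4, Itga5, Itgav, Itgb7 and Fn1 lie more than 1 log2 unit above it.

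Of 18 other integrin subunit genes, 12 had a row in the tables, and 3 could be called in the Drosha-null library against the control. Itga8, whose α8 subunit pairs with β1 and binds matrix ligands such as nephronectin, was called higher. It had 379 counts in the Drosha-null, 72 in the Ter119-low and 34 in the control library, with a log2 ratio of Drosha-null to control of 3.05 (2.56 to 3.62) and of Ter119-low to control of 0.99 (0.39 to 1.63). Itgae, which encodes a partner of β7 and came next by FPKM averaged over the libraries, had 10, 5 and 12 counts, and the leukocyte β2 gene Itgb2 had 10, 4 and 1. By FPKM Itgae stood above Itgb2 only in the control library.

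Of 41 listed genes of integrin activation and adhesion adaptors, 40 had a row, counting Hic1, which encodes no adaptor, was listed in error and was too low to be called. In the Drosha-null library against the control 34 could be called, and 8 were higher and 3 lower, beside 12.4% and 7.81% of all genes, around a median log2 ratio of 0.08, against −0.02 over all genes. Fermt3, which encodes kindlin-3, the integrin activator of blood cells, had 258 counts in the Drosha-null, 50 in the Ter119-low and 59 in the control library (Drosha-null over control 1.71, 1.31 to 2.15). Vcl, which encodes vinculin, a link between integrins and actin, had 583, 102 and 100 counts (2.13, 1.83 to 2.46). Both thus followed the pattern of Itgav, high in the Drosha-null library alone.

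Pxn, Ptk2b, Src, Crk and Actn1 were among the others called higher, and Tns1, Itgb1bp1 and Vasp were those called lower. Ptk2b and Src passed the CPM limit only through the Drosha-null library. Itgb1bp1, which encodes ICAP-1, a binder and inhibitor of the β1 tail, had 50 counts in the Drosha-null and 87 in each of the other libraries, and its log2 ratio of Drosha-null to control was −1.20 (−1.74 to −0.69). It lies in the third decile by length, where the median of all genes was −0.15. The most abundant genes of the list, the small GTPase gene Rap1a and the adaptor gene Lims1, stood at −0.36 and −0.30 against the control. In the Ter119-low library against the control, 33 genes of the list could be called. Of these 1, Actn1, was higher and 1, Fermt2, lower, beside 2.9% and 2.76% of all genes, so the list lay near those shares. Fermt2, which encodes kindlin-2, had 22 counts there, against 45 in the control library. Lims2 had 0, 0 and 6 counts in the Drosha-null, Ter119-low and control libraries.

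Of 34 listed integrin ligands other than the members, 30 had a row and 19 could be called in the Drosha-null library when set against the control: 5 were higher and 0 lower, beside 12.4% and 7.81% of all genes, with a median of 0.65. Thbs1, which encodes thrombospondin 1, had 76 counts in the Drosha-null, 18 in the Ter119-low and 13 in the control library (2.09, 1.28 to 3.11). Mfge8, whose protein bridges αv integrins and dying cells, had 60, 37 and 11 counts and was called higher in the Ter119-low library too (1.62, 0.66 to 2.79). The 3 others called higher were Lamb1, Col4a1 and Fbn1, the last of which passed the CPM limit only through the Drosha-null library. These are long genes, and less the median of their decile by length their log2 ratios were 0.92, 0.99 and 0.94, under the size limit. That of Thbs1, also long, was 1.88. The laminin gene Lamb2 had 14, 0 and 6 counts and the leukocyte ligand gene Icam1 10, 0 and 6. The basement membrane gene Nid1 had 656, 526 and 459 counts, a log2 ratio of 0.11 in both cKO libraries against the control. Icam4, the red-cell ligand of αv integrins on island macrophages, had 125, 183 and 154 counts, with ratios of −0.71 (−1.06 to −0.36) for Drosha-null and 0.16 (−0.15 to 0.48) for Ter119-low over control. It lies in the shortest decile by length, whose medians were −0.59 and −0.16.

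Among 20 genes of erythroblastic islands and other adhesion receptors, 14 could be called, of which 4 were higher in the Drosha-null library than in the control (Cd47, Ephb4, Cd34 and Pecam1) and 0 lower, beside 12.4% and 7.81% of all genes, with a median of 0.45. Ephb4, Cd34 and Pecam1 passed the CPM limit only through the Drosha-null library, and so could be called higher alone. Cd47, a surface protein that associates with αv integrins and restrains uptake by macrophages, had 454 counts in the Drosha-null, 92 in the Ter119-low and 79 in the control library. Pecam1, an adhesion gene of endothelium and blood cells, had 55, 4 and 3 counts, and the ephrin receptor gene Ephb4 39, 25 and 8. Cd24a, the most abundant of these genes per length, had 1071, 1067 and 826, and Jam3 was called higher in the Ter119-low library alone (13, 20 and 6 counts), through which alone it passed the limit.

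**Figure D5:**
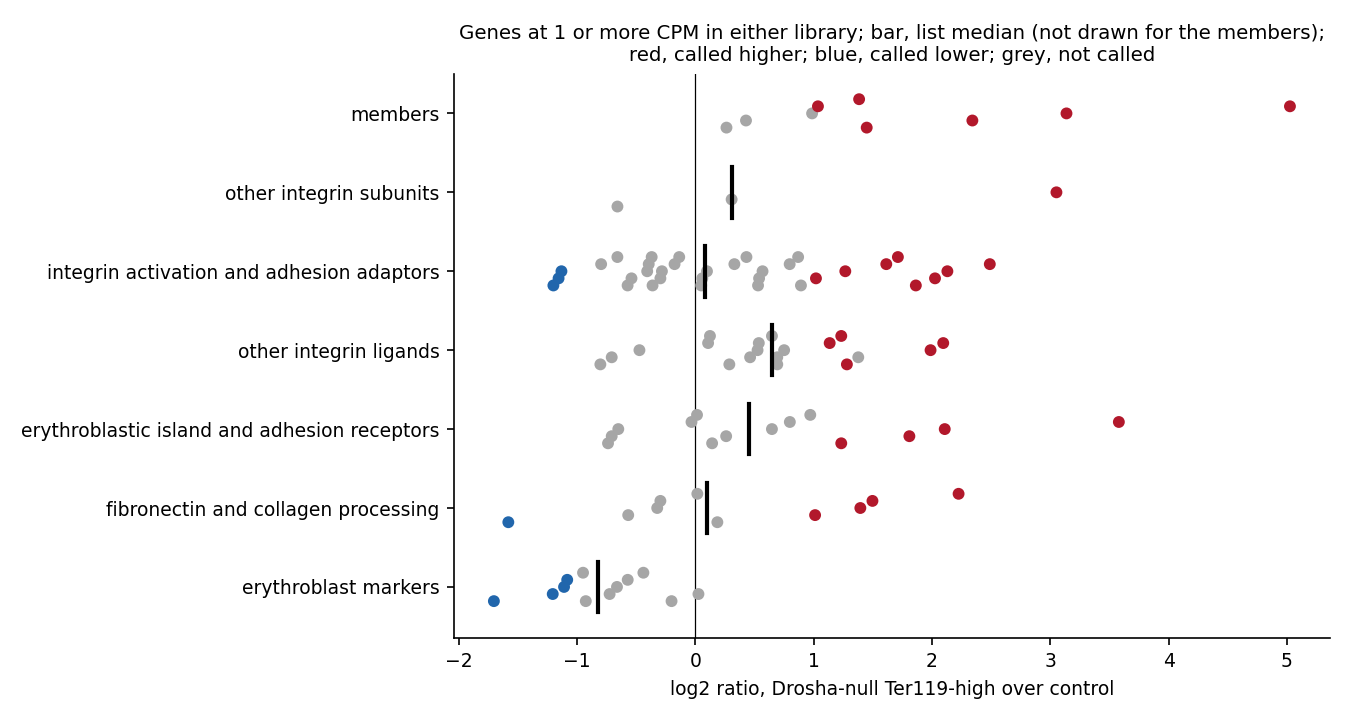
Log2 ratio of Drosha-null to control for genes of the members' set, of 5 lists of partner genes and of the erythroblast markers, 1 point per gene that could be called. The erythroblast markers have a median of −0.83, with 4 of 12 called lower, while Itga4 is the rightmost point at 5.03.

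The summed RNA of genes used as markers of other cells also differed between libraries, by more for some lists than for others. Which cells this RNA came from was not tested. Summed endothelial markers (13 of 13 listed genes with a row) stood at 19.3 CPM in the Drosha-null, 7.41 in the Ter119-low and 9.28 in the control library, led by Egfl7, Pecam1 and Cdh5. The genes said to lead a list are those with the highest FPKM averaged over the 3 libraries, an order that need not hold in each: Pecam1 had 1.84 FPKM in the Drosha-null, 0.13 in the Ter119-low and 0.1 in the control library. Of 5 endothelial genes that could be called against the control, Pecam1 and Tek were higher in the Drosha-null library. Macrophage markers (10 of 14) stood at 7, 2.81 and 6.43 CPM, led by Lyz2, Cd68 and Tyrobp, and of 2 that could be called against the control 0 were called either way in the Drosha-null library. Mesenchyme markers (11 of 12) stood at 17.6, 12.3 and 12.7 CPM, led by Twist1, Col1a2 and Col3a1, and of 7 that could be called against the control Fbn1, Pdgfra and Pdgfrb were higher in the Drosha-null library.

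Megakaryocyte and platelet markers (14 of 17) summed to 15.3, 13.1 and 11.1 CPM in the Drosha-null, Ter119-low and control libraries, led by Tubb1, Gp9 and Gp1ba, with 3, 5 and 3 genes at 0. Of 5 that could be called against the control, 1, Gp1ba, was higher in the Drosha-null library, with 39, 5 and 3 counts. Of further platelet genes, Clec1b had 8, 0 and 0 counts and Pf4 had 0, 4 and 4, both too low to be called. Blood progenitor markers (8 of 12) summed to 82.4, 17.1 and 17.1 CPM, most of it Runx1, with Cd34 and Mpo next. Of 7 that could be called against the control, Runx1, Cd34 and Mpo were higher in the Drosha-null library and Hoxa9 was lower. Cardiac muscle markers (8 of 8) summed to 29, 6.62 and 8.93 CPM, led by Actc1, Tnnt2 and Myl7. The largest counts were those of the long gene Ttn, with 181 in the Drosha-null, 42 in the Ter119-low and 37 in the control library, and Ttn, Actc1 and Smyd1 (27, 0 and 0 counts) were called higher against the control, of 4 that could be called. Visceral endoderm markers (6 of 10) summed to at most 1.17 CPM, led by Ttr, Trf and Rbp4, and of 8 lymphoid and mast cell markers 1, Cd79a, had a row, with 0, 2 and 0 counts. The erythroblast markers, led by Hba-x, Hbb-y and Hbb-bh1, had 4 of 12 called lower and 0 higher in the Drosha-null library against the control. Of the marker genes of other cells called higher, Gp1ba, Pecam1, Tek, Fbn1, Pdgfrb, Cd34, Mpo and Smyd1 passed the CPM limit only through the Drosha-null library, and Hoxa9, called lower, only through the control. The part of other cells in the members' ratios was not tested.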

How the data were processed

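Total RNA of 3 sorted erythroblast libraries, 1 per group, was analysed from 2 deposited tables that set each cKO library beside the control. The authors deposited expected counts per gene (estimated read counts, fractional for some genes though whole for the members), FPKM (0.001 at 0 counts), log2 ratios of the FPKM columns, and p-values of a test not named there, per the file headers and values. The authors' p-values and log2 ratios were not used. No source used here names an aligner, a counter or a genome build.

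Joining on gene ID gave 15058 genes, and the counts were rounded to whole numbers. Libraries were scaled by TMM in edgeR 4.0.16 (R 4.3.3), with factors of 1.2, 0.946 and 0.885 for the Drosha-null, Ter119-low and control libraries. Ratios, intervals and calls were computed over all genes (Python 3.11.15, SciPy 1.17.1, pandas 2.3.3), and the procedure was tested on simulated data. Members and gene lists were chosen with earlier results of these data known. Genes outside the set were named by rule: per list, the 2 per comparison whose nearer interval bound lies farthest from 0 and the 2 most abundant by mean FPKM, or the 3 most abundant for marker lists; for Itga4, the 5 nearest genes at 10 or more CPM. Pf4, Clec1b, Ttn, Smyd1, Itgb1bp1, Gata1, Gata2 and gene names given to complete a count were added after their values were seen. Coordinates and 3′ UTRs come from GENCODE M21 (GRCm38) and were not used for the counts. Proteins were not analysed, and 1 gene of the adaptor list is not reported here by name.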

Additional observations from a re-analysis of the deposited data

How the results depend on the processing

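No paired analysis was possible because each group has 1 library. For the same reason no library could be left out. The number of members called higher in the Drosha-null library against the control was 6, and it was 3 under a size rule of 3-fold and between 4 and 7 under the other 9 alternatives tried: other scalings, 1 count added, other CPM limits, a 1.5-fold size rule, deposited FPKM ratios and centring on gene length. It was 4 with a limit of 5 CPM and with length centring. Against the Ter119-low library the count was between 3 and 5, and in the Ter119-low library against the control 0 under all of them. No member was called lower in any. Of 178 recomputed member ratios, 158 stayed inside their counting interval, 20 moved outside it and 0 called ratios turned sign. Scaling by total counts shifted the median of all genes by 0.43 (log2) for Drosha-null over control and by 0.34 for Drosha-null over Ter119-low. Under it Itgb1 stood at 1.47 and Itga4 at 5.46 in the first of these, and the number of members above 0 remained 9 of 10. Depth limits Itga5, Itgb7 and Vcam1, with 22 counts or fewer in every library.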

Other observations

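Genes of fibronectin and collagen processing, 13 of 13 listed with a row, had 4 called higher (Plod1, Plod2, Serpinh1 and Tgfbr1) and 1 lower of 10 that could be called in the Drosha-null library against the control, beside 12.4% and 7.81% of all genes, with a median log2 ratio of 0.10. Plod1, a collagen lysyl hydroxylase gene, had 77 counts in the Drosha-null, 27 in the Ter119-low and 12 in the control library and was called higher in both cKO libraries. Tgfbr1, which encodes a TGF-β receptor, had 624 counts in the Drosha-null and 233 in each of the other libraries. The matrix lysyl oxidase gene Loxl2 went the other way, with 181 counts in the Drosha-null, 497 in the Ter119-low and 409 in the control library (Drosha-null over control −1.58, −1.84 to −1.33). Tgm2, a transglutaminase that can crosslink fibronectin and the most abundant gene of this list per length, had 1246, 1211 and 1175 counts, with a log2 ratio of Drosha-null to control of −0.32 (−0.44 to −0.21).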
